A study of Mus musculus with 22 samples.

Results

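Paneth cell products are described here through 9 genes of the 52636 in the table: Lyz1, Mmp7, Defa17, Defa22, Defa24, Defa30, Ang4, Itln1 and Mptx2. They were chosen by name, with earlier results of these data known, and all 9 were found once each. Their values come from RNA-seq of organoids grown from duodenal crypts of adult wild-type mice, and each of the 4 organoid lines was derived from 1 mouse. Cold atmospheric plasma (CAP) is an ionised helium gas, here produced by a jet at 50 W for 60 s. The comparisons ask how treatment, its route and its timing changed the gene expression of normal gut epithelium.

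The 22 libraries form 7 groups. Untreated cultures gave 4 libraries, from line 1 (CD1), line 2 (WT2), line 3 (1-20) and line 4 (2-20). The names in brackets are those in the library titles. The study's methods name the outbred CD1 strain for its adult mice in general, not for line 1 alone. Each treated group gave 3 libraries, from lines 1, 2 and 4. Direct CAP was applied to the organoids on day 1, with the medium changed after 30 min or after 24 h. For indirect CAP, medium from another treated culture was given from day 1 or from day 2, and for PAM (plasma-activated medium) the medium was treated without organoids and given from day 1 or from day 2. For these conditioned media the labels state 30 min where they start on day 1 and 24 h where they start on day 2. The study's methods instead describe exposure over a full day in each such group, and the groups started on day 1 are treated here as exposed for 24 h. Cultures were collected on day 3, which is less certain for the group with medium changed at 30 min. The labels call the cells stem cells, although whole organoids with several cell types were sequenced. Lines 1 and 2 had passage numbers 12 and 14 and lines 3 and 4 passage 4.

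Paneth cells sit at the base of the crypts of Lieberkühn, between the stem cells, and release granules filled with antimicrobial proteins into the crypt lumen. They also supply neighbouring stem cells with niche signals such as WNT3, EGF and Notch ligands. Their mature state depends on WNT signalling through TCF/LEF factors, and mouse alpha-defensins are textbook targets of that pathway.

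The products fall into 3 kinds. Lyz1 encodes lysozyme, which cuts bacterial cell wall peptidoglycan. Defa17, Defa22, Defa24 and Defa30 encode alpha-defensins (cryptdins), small peptides that disrupt bacterial membranes, and Mmp7 encodes matrilysin, the protease that cuts their inactive precursors to the active form in mice. Ang4 encodes a secreted ribonuclease with antimicrobial activity, Itln1 a lectin that binds sugars of microbial surfaces and is also made by goblet cells, and Mptx2 a pentraxin, a family of soluble pattern-recognition proteins.

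The 4 alpha-defensin genes lie within 600830 bases on chromosome 8 of GRCm38 (21134642 to 21735471), in the order Defa30, Defa22, Defa17 and Defa24, all on the plus strand. Lyz1 lies on chromosome 10 (117287797 to 117292868), Mmp7 on chromosome 9 (7692090 to 7699585), Ang4 on chromosome 14 (51763878 to 51773590), and Itln1 (171518122 to 171535294) and Mptx2 (173274382 to 173277777) on chromosome 1. All 9 are annotated as protein-coding genes.

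Promoter sequences were available for 7 of the 9 genes, in RefSeq on GRCm38.p6 (Defa17 and Defa24 had no entry). The window shown runs from 150 to 31 bases before the annotated start, 5′ to 3′ on the strand of the gene. The letters searched were CTTTGA, the core that TCF/LEF factors recognise, and its reverse complement TCAAAG, and matches stand in capitals. The 2 alpha-defensins with an entry are shown because both hold a match, Lyz1 because it is the most abundant of the products, and Mptx2 because its level differed most between groups.
Defa22: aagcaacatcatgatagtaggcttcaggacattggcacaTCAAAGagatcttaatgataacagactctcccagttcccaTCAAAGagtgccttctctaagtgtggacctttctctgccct
Defa30: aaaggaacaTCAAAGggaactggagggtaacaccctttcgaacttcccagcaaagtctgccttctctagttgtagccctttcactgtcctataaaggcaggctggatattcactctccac
Lyz1: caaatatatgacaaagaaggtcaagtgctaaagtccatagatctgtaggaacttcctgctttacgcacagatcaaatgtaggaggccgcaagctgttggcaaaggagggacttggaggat
Mptx2: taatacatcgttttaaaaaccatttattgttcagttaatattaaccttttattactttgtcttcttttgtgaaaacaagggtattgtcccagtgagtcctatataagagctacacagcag
The windows are chr8:21162127-21162246 and chr8:21134500-21134619 on the plus strand, and chr10:117292899-117293018 and chr1:173277787-173277906 on the minus strand.

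Defa22 held 2 matches, beginning 111 and 71 bases before the start, and Defa30 held 1, beginning 141 bases before it. The other 5 genes with an entry held no match in this window. Of 32851 windows of the same 120 bases over all promoter entries, 6.65% held at least 1 match and 0.332% held 2 or more, while 13 of the 16 entries for alpha-defensin genes held one. A match describes letters only, and binding was not measured.

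Values are CP20M, read counts that the authors scaled to 20 M per library. They do not show a division by gene length, so levels are compared between genes only after division by exon length (kb). In untreated organoids Lyz1 had 13530 ± 2054 CP20M per kb (SD, n = 4) and ranked 44 of 19321 genes, and Defa24 had 12890 ± 1122 and ranked 49. The next in order were Itln1 (8836 ± 1284 CP20M per kb), Defa30 (4340 ± 1296), Ang4 (2415 ± 1132) and Defa17 (2310 ± 332). Lyz1 and Defa24 differed by less than their spread, as did Ang4 and Defa17. Mptx2 (1111 ± 542), Mmp7 (417.1 ± 156.9) and Defa22 (34.0 ± 32.0) were lower. Defa22, at 4 to 34 CP20M in the untreated libraries, was near the lower limit for testing.

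Library depth, estimated from the spacing of low values, was 19.4 to 28.7 M reads (median 22.5). Epithelial markers were high in every library (Epcam, Vil1 and Cdh1 summed to 44943 to 66511 CP20M). Of 5 leukocyte markers, Ptprc, Cd3e and Cd79a were at 0 in 3, 8 and 6 libraries and at most 12, 25 and 4 CP20M in the others, while Cd68 had 16 to 86 CP20M and Lyz2, which is also on the list of other Paneth products below, 12 to 191. Cd68, a macrophage gene, rose in the groups exposed from day 1 (21.5 to 56.4 CP20M in the means, log2 fold change 1.35 ± 0.20, adjusted p = 0.000427) and after PAM from day 2 (1.23, adjusted p = 0.009). The 4 stromal and endothelial markers summed to 7 to 42 CP20M. Untreated libraries 1 and 2 did not follow their line labels. In deviations from the group means, the untreated library of line 1 correlated better with the treated libraries of line 2 (median r = 0.541) than with those of its own line (0.075), and that of line 2 better with line 1 (0.353) than with its own (0.132). The untreated library of line 4 correlated with its own line (0.597). The group comparisons below do not use the line. Where it is used in the pooled comparison, log2 fold changes without these 2 libraries are given for most products, and they rest on line 4 alone. For a single treated group the blocked fit without these 2 libraries leaves no residual degrees of freedom, so its blocked values rest on the labels as given.

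Together the 9 genes took 0.191% ± 0.0256 of the untreated total (SD, n = 4). In the treated groups the mean share was 0.12% ± 0.0541 after direct CAP with 30 min of exposure, 0.0992% ± 0.0264 with 24 h, 0.0787% ± 0.0346 after indirect CAP and 0.0585% ± 0.0395 after PAM from day 1, 0.124% ± 0.0293 after indirect CAP and 0.0794% ± 0.0478 after PAM from day 2 (n = 3 each). In bulk RNA, fewer cells of a type and less RNA per cell cannot be told apart.

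**Figure D1:**
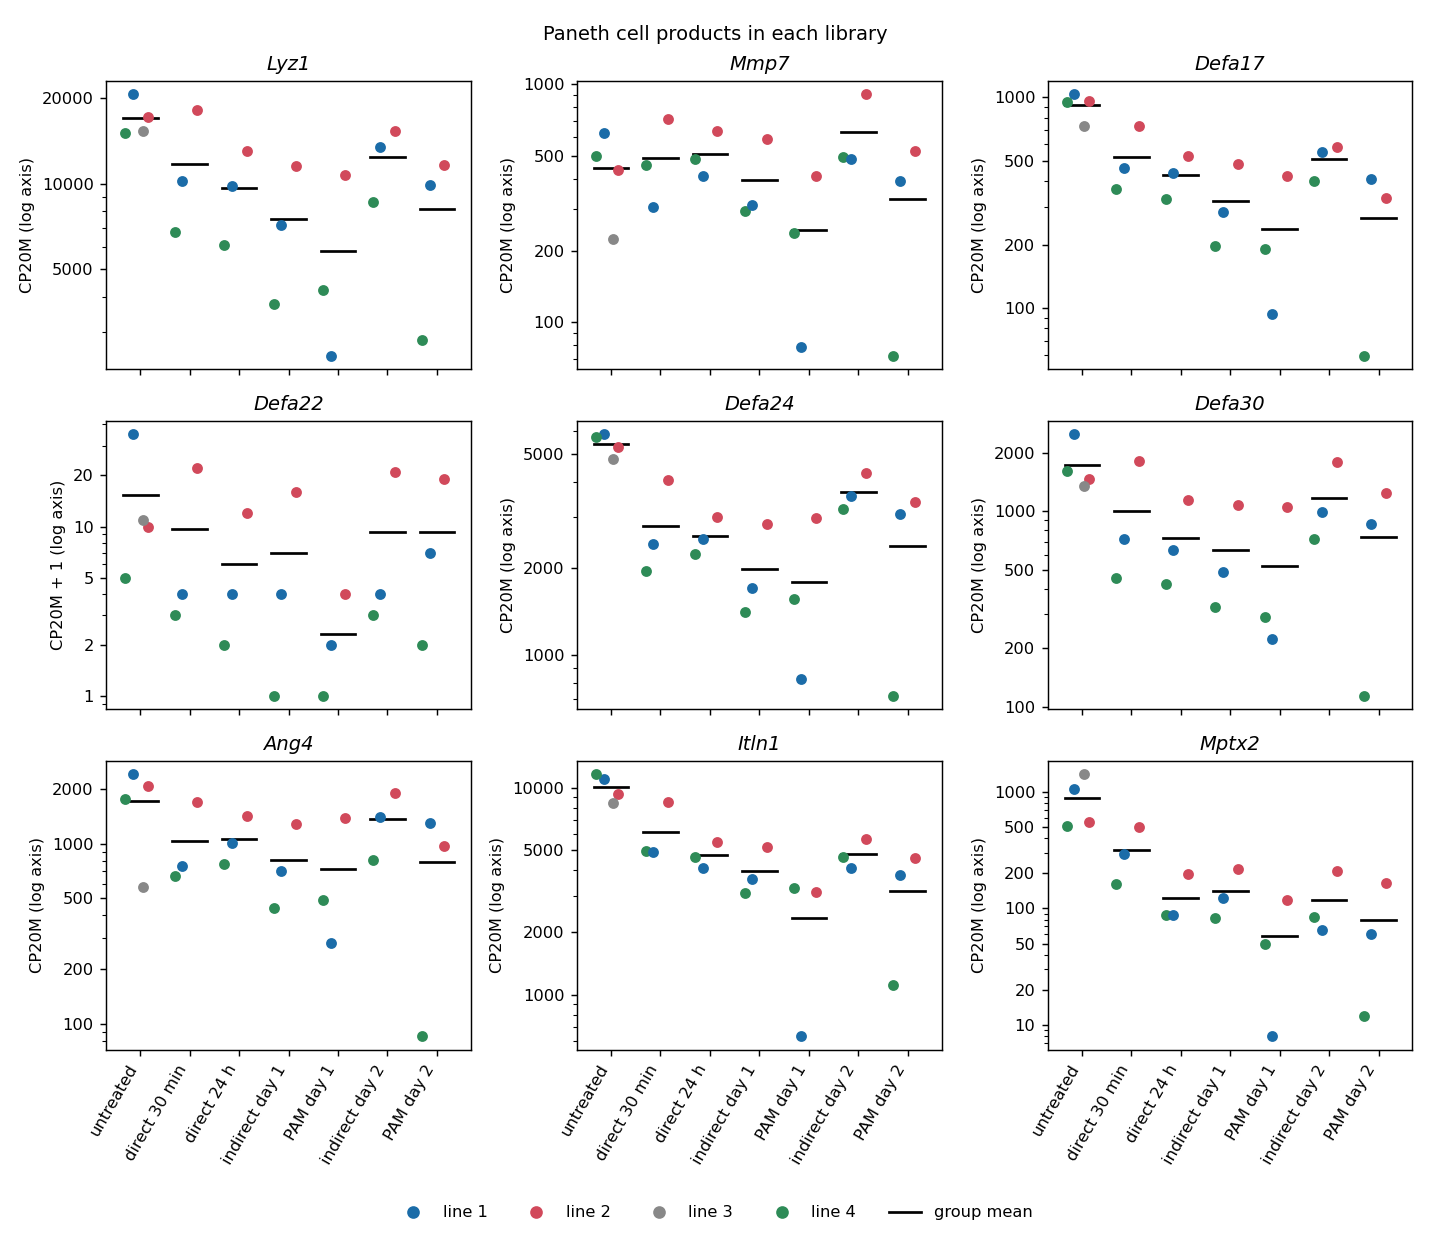
Value of each gene in each of the 22 libraries (CP20M on a log axis, with 1 added for Defa22), by group, with colours for the organoid lines and a bar for the group mean. Most products are highest in the untreated libraries, and within the treated groups line 2 (red) is mostly the highest.

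Organoids exposed from day 1 for 24 h, by any of the 3 routes, had lower levels of most Paneth cell products than untreated organoids (9 libraries against 4). With limma's moderated test and the limits used throughout (adjusted p under 0.01, log2 fold change of 1 or more in size), 5 of the 9 genes fell: Mptx2, Defa30, Defa17, Itln1 and Defa24. Of all 18490 genes tested, 2.07% fell. All 9 treated libraries lay below all 4 untreated ones for these 5 genes and for Lyz1, against 10.5% of all genes. The median log2 fold change of the 9 genes was -1.63, that of all genes -0.05. Defa22 reached the lower limit for testing only with the help of the untreated libraries, and the median of the other 8 genes was -1.54.

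Mptx2 changed most. It had 1060, 551, 1408 and 511 CP20M in the untreated libraries of lines 1 to 4, and 8 to 217 (median 87.0) in the 9 libraries exposed from day 1. The groups did not overlap, and the log2 fold change was -3.28 ± 0.64 (SE, adjusted p = 0.00205), a 9.71-fold lower level. It ranked 17 of the 18490 genes from the most negative. The call held in each of the 13 fits that left out 1 library (adjusted p 0.000226 to 0.00959), but without all libraries of line 4 the adjusted p was 0.023.

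The alpha-defensins were lower as well. Defa24, the most abundant of them, had 4803 to 5842 CP20M untreated and 824 to 3006 (median 2234) from day 1, a log2 fold change of -1.45 ± 0.28 (adjusted p = 0.00207). Defa30 went from 1342 to 2483 CP20M untreated to 223 to 1140 (log2 fold change -1.65 ± 0.41, adjusted p = 0.0077), and Defa17 from 728 to 1034 CP20M to 94 to 525 (-1.64 ± 0.37, adjusted p = 0.00448). Defa24 kept its call in all 13 fits without 1 library, while Defa17 kept it in 10 and Defa30 in 4. Defa17 lost it without untreated library 1, 2 or 4, and Defa30 without any 1 untreated library or without the line 1 or line 4 library of direct or indirect CAP or the line 4 library of PAM.

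Defa22 had 34, 9, 10 and 4 CP20M untreated and 0 to 15 (median 3.0) from day 1. The groups overlapped and it did not pass the test (-1.83 ± 0.73, adjusted p = 0.0681). Near-identical copies limit which gene the reads of 2 of these genes came from: 90.6% of the 100-base windows of Defa17 transcripts also occur in Defa3, and 40.3% of those of Defa22 in Defa21. Defa24 shared none and Defa30 shared 0.334%.

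Itln1 had 10963, 9370, 8393 and 11600 CP20M in the untreated libraries and 628 to 5485 (median 3604) from day 1. Every treated library was below every untreated one, and the log2 fold change was -1.63 ± 0.42 (adjusted p = 0.00958). This call was close to the threshold: it held in 4 of the 13 fits without 1 library, and was lost without any untreated library, without the line 1 library of direct CAP, the line 1 or 4 library of indirect CAP or the line 2 or 4 library of PAM, and with the line as a block (adjusted p = 0.0148).

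Lyz1, the product with the highest level, had 20706, 17237, 15293 and 15122 CP20M in the untreated libraries and 2464 to 13081 (median 7179) from day 1. The groups did not overlap, but the spread among treated libraries was wide and the log2 fold change of -1.34 ± 0.38 missed the threshold (adjusted p = 0.0148). It passed without all line 2 libraries (-1.74, adjusted p = 0.00904) and without the line 2 library of direct or of indirect CAP.

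Ang4 had 2421, 2082, 577 and 1768 CP20M untreated, with line 3 far below the others, and 281 to 1418 (median 767) from day 1. Its log2 fold change was -0.99 ± 0.45 and its adjusted p 0.103. With the organoid line as a block, in which line 3 drops out of the contrast because it has no treated library, Ang4 passed (-1.45, adjusted p = 0.00726). In the blocked fit without untreated libraries 1 and 2, its log2 fold change was -1.69 and it was not called.

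Mmp7 was the exception in level. It had 624, 437, 223 and 498 CP20M untreated and 79 to 640 (median 412) from day 1, and the groups overlapped almost fully. The log2 fold change was -0.32 ± 0.44 (adjusted p = 0.617). Line 3, the lowest untreated library, has no treated library. With the line as a block, where line 3 drops out, the log2 fold change was -0.62 (adjusted p = 0.303). In the blocked fit without untreated libraries 1 and 2, which rests on line 4 alone, the log2 fold change was -0.62. By the labels as given, Mmp7 was below its own untreated library in 6 of 6 treated groups in lines 1 and 4, and in 1 of 6 in line 2.

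**Figure D2:**
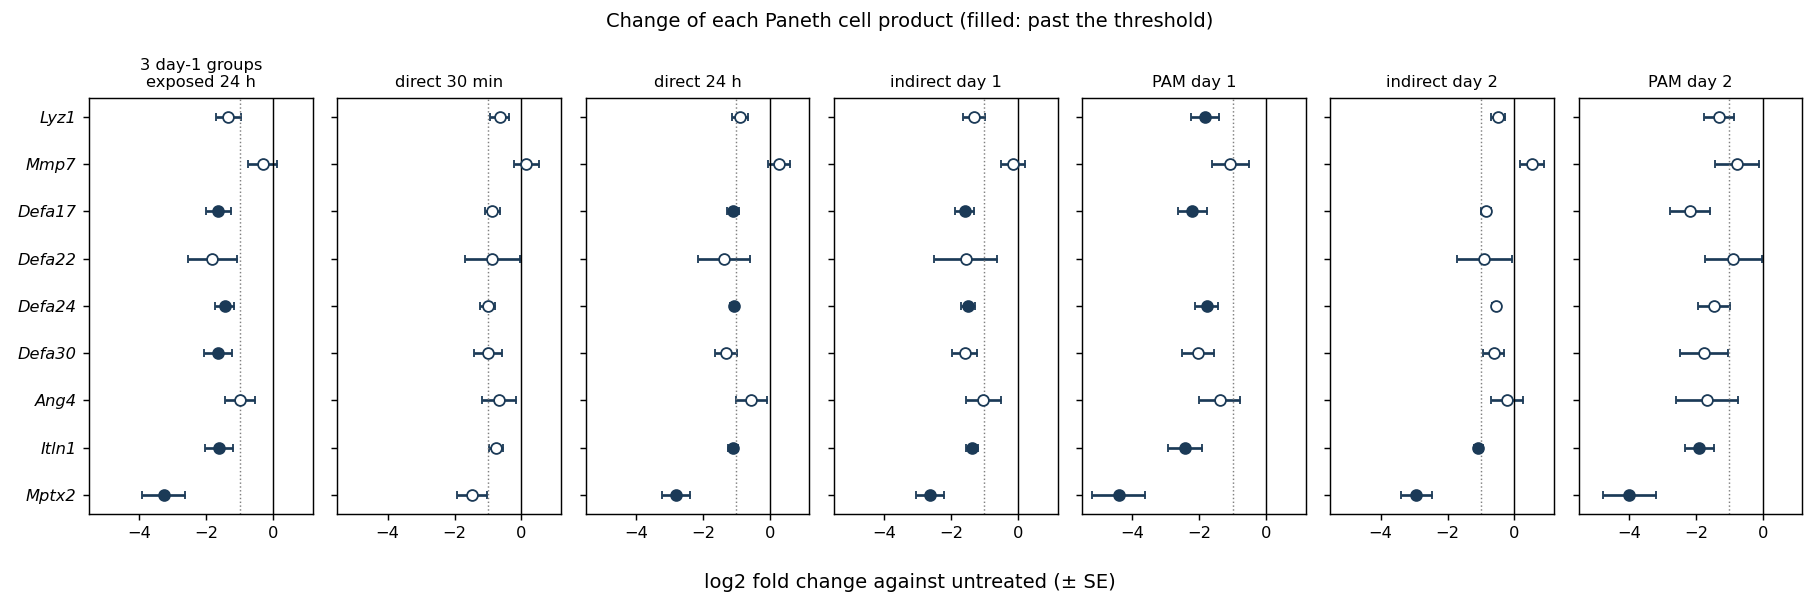
Log2 fold change of each gene against the 4 untreated libraries (points, with SE bars), for the 3 groups exposed for 24 h from day 1 together and for each treated group, where filled points passed the test. Mptx2 is leftmost in each panel, and Mmp7 is to the right of 0 for both direct CAP groups and for indirect CAP from day 2.

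With the organoid line as a block, 5 of the 9 genes also fell in the pooled comparison, with Ang4 in place of Itln1. Without the untreated libraries of lines 1 and 2, the blocked contrast rests on line 4 alone, with 1 untreated library. No calls are read from it. Its log2 fold changes were -1.72 for Lyz1, -2.04 for Defa17, -1.75 for Defa24, -2.24 for Defa30 and -2.83 for Mptx2. The 9 treated libraries come from 3 mice, so the unblocked p-values treat libraries of the same mouse as independent. Leaving out all libraries of line 4 left 0 of the 9 genes called.

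The 7 treated-to-untreated comparisons share the same 4 untreated libraries. After direct CAP with medium changed at 30 min, no product passed the test with limma (1 gene of 17731 did, 0.00564%), and 5 of the 9 had an unadjusted p under 0.05, against 24.9% of all genes. All 3 treated libraries were below all 4 untreated for Defa24 and Mptx2, against 11.2% of all genes. Mptx2 had 295, 494 and 163 CP20M in lines 1, 2 and 4 (log2 fold change -1.48 ± 0.45, adjusted p = 0.117), and Lyz1 had 10236, 18199 and 6734 (-0.65 ± 0.29, adjusted p = 0.209), so line 2 was within the untreated range for Lyz1. Mmp7 had a mean of 492.3 ± 208.3 CP20M against 445.5 ± 167.5 in untreated organoids.

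After direct CAP with 24 h of exposure, Itln1, Defa17, Defa24 and Mptx2 fell, 4 of 9 against 0.917% of all genes. Mptx2 had 87, 196 and 87 CP20M in lines 1, 2 and 4 (log2 fold change -2.81 ± 0.42, adjusted p = 0.00551). Itln1 had 4092, 5485 and 4635 CP20M (-1.09 ± 0.14, adjusted p = 0.00424). Those 4 genes, Lyz1 and Defa30, 6 in all, were below every untreated library (19.1% of all genes). Lyz1 was at 9660 ± 3510 CP20M (-0.88 ± 0.24, adjusted p = 0.0396), and Mmp7 at 512.3 ± 116.4 (0.27 ± 0.32, adjusted p = 0.618). None of the 4 calls held without untreated library 2 or 4 or the treated library of line 1 or 4, or when all 7 groups shared one fit, 1 held without untreated library 1 and 2 without untreated library 3.

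After indirect CAP from day 1, Itln1, Defa17, Defa24 and Mptx2 fell, 4 of 9 against 0.477% of all genes. Mptx2 had 123, 217 and 83 CP20M in lines 1, 2 and 4 (-2.62 ± 0.42, adjusted p = 0.00851). Defa24 had 1712, 2837 and 1409 CP20M (-1.50 ± 0.21, adjusted p = 0.00611). These genes, Lyz1 and Defa30, 6 in all, were below every untreated library (17.7% of all genes). With the line as a block 3 were called and Defa17 was not (adjusted p = 0.0101). Leaving out 1 library left 0 calls in 5 of the 7 fits, 1 without untreated library 3 and 3 without the treated library of line 2, and the shared fit of all 7 groups left 0.

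PAM from day 1 gave the lowest group mean for each of the 9 products, although no product passed a test between treated groups (given below). Mptx2, Itln1, Defa17, Lyz1 and Defa24 fell, 5 of the 8 tested against 5.4% of all genes, and Defa22 (0, 1 and 3 CP20M) was below the filter. Mptx2 had 8, 117 and 50 CP20M in lines 1, 2 and 4 (-4.41 ± 0.79, adjusted p = 0.0029). Itln1 had 628, 3117 and 3270 CP20M (-2.43 ± 0.52, adjusted p = 0.00648), and Lyz1 had 2464, 10716 and 4220 (-1.82 ± 0.42, adjusted p = 0.00906). In this group line 1 was the lowest for every product but Defa22, in contrast to line 4 in most others. Of the 8 genes tested, 6 were below every untreated library, against 29.7% of all genes tested. With the line as a block 0 of the 8 passed (adjusted p 0.0124 to 0.0994). Leaving out any untreated library or the treated library of line 4 left 1 or 2 calls, Mptx2 in each case.

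With exposure from day 2, Mptx2 and Itln1 fell after either medium. After indirect CAP these were 2 of the 9 products, while 5.71% of all genes fell. Mptx2 had 65, 208 and 84 CP20M in lines 1, 2 and 4 (-2.93 ± 0.47, adjusted p = 0.00164) and Itln1 4088, 5629 and 4604 (-1.08 ± 0.14, adjusted p = 0.000681). Defa17 (-0.85 ± 0.16, adjusted p = 0.00371) and Defa24 (-0.56 ± 0.11, adjusted p = 0.00483) had small p-values but less than the required fold. Those 4 genes were below every untreated library (25.8% of all genes). Lyz1 was at 12472 ± 3475 CP20M (-0.48 ± 0.20, adjusted p = 0.0821) and Mmp7 at 630.3 ± 242.2 (0.53 ± 0.36, adjusted p = 0.258). Itln1 had a log2 fold change of -0.97 without the treated library of line 1.

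After PAM from day 2, 2 of 9 products fell, against 10.5% of all genes. Mptx2 had 60, 166 and 12 CP20M in lines 1, 2 and 4 (-3.98 ± 0.78, adjusted p = 0.00439), and Itln1 had 3804, 4557 and 1111 (-1.90 ± 0.44, adjusted p = 0.00856). The line 4 library stood apart: Ang4 had 85 CP20M there against 1305 and 973 in lines 1 and 2, and Mmp7 72 against 392 and 526. Without it Defa17 passed as well (-1.30, adjusted p = 0.000835) and 3 genes were called. Without untreated library 1, 2 or 3 or the treated library of line 1 no product was called, and without untreated library 4 only Mptx2 was. Itln1 did not pass with the line as a block (adjusted p = 0.0182). The groups did not overlap for 6 products, which were below every untreated library (32.6% of all genes).

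Between treated groups, limma called 0 of the 9 products in all 5 comparisons tested. These were direct CAP for 24 h against 30 min (0 of 17668 genes called), PAM against direct CAP from day 1 (0 of 17072), indirect CAP from day 2 against day 1 (2 of 17987, 0.0111%), and PAM from day 2 against PAM from day 1 (0 of 17354) and against indirect CAP from day 2 (0 of 17755). The products with an unadjusted p under 0.05 numbered 1, 1, 1, 0 and 0 in that order, of 8 tested each, against 21.4%, 10.4%, 21.7%, 26.8% and 9.48% of all genes. Mptx2 was lower after 24 h than after 30 min of direct CAP in all 3 lines, with a log2 fold change of -1.33 and an adjusted p of 0.205, or 0.0093 with the line as a block, where it was called. That fit called 200 of all genes.

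The blocked fit of indirect CAP from day 2 against day 1, which uses treated libraries alone, called none of the products, since none passed the limit on the fold, and 623 of 17987 genes in all. Of the 8 products it tested, 6 had small p-values with a smaller difference, namely Lyz1, Mmp7, Defa17, Defa24, Defa30 and Ang4 (log2 fold change 0.68 to 0.97, adjusted p 0.000144 to 0.00502). Lyz1 had 7179, 11584 and 3757 CP20M in lines 1, 2 and 4 from day 1 and 13497, 15319 and 8599 from day 2. Each of these 6 genes was higher from day 2 in all 3 lines. How many of all genes had such p-values in this fit, or were higher in all 3 lines, was not counted. Mptx2 was higher in 1 line (-0.32, adjusted p = 0.272). In the other 3 comparisons the blocked adjusted p-values of the products were 0.0318 or above.

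In proportion to Lyz1, Mptx2 and Mmp7 shifted most of the products. Relative to Lyz1 in the same library, Mptx2 was at 3.20 to 9.21 CP20M per 100 CP20M of Lyz1 in untreated organoids and at 0.325 to 2.21 in the 9 libraries exposed from day 1 for 24 h, without overlap (log2 difference -1.94, p = 0.0028, 2-sided exact permutation test). Mmp7 went the other way, from 1.46 to 3.29 per 100 of Lyz1 untreated to 3.21 to 7.99 (log2 difference 1.02, p = 0.00559, exact permutation test). These ratios were chosen after the values had been seen, 8 ratios to Lyz1 were tested without adjustment, and the test treats the libraries of a line as independent. The highest untreated Mptx2 ratio and the lowest untreated Mmp7 ratio were those of line 3, which has no treated library. Such a ratio does not depend on the scaling of the library.

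For the alpha-defensins the differences in the ratio to Lyz1 were smaller. Defa24 was at 32.0 CP20M per 100 of Lyz1 untreated and 29.9 from day 1 (log2 difference -0.11, exact permutation p = 0.484), Defa17 at 5.40 and 4.39 (-0.30, p = 0.028, exact) and Defa30 at 9.99 and 8.08 (-0.31, p = 0.0615, exact). Itln1 (59.7 and 52.1 per 100 of Lyz1, exact p = 0.414) and Ang4 (9.81 and 11.4, exact p = 0.476) gave no difference beyond the spread, as did Defa22 (exact p = 0.383).

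**Figure D3:**
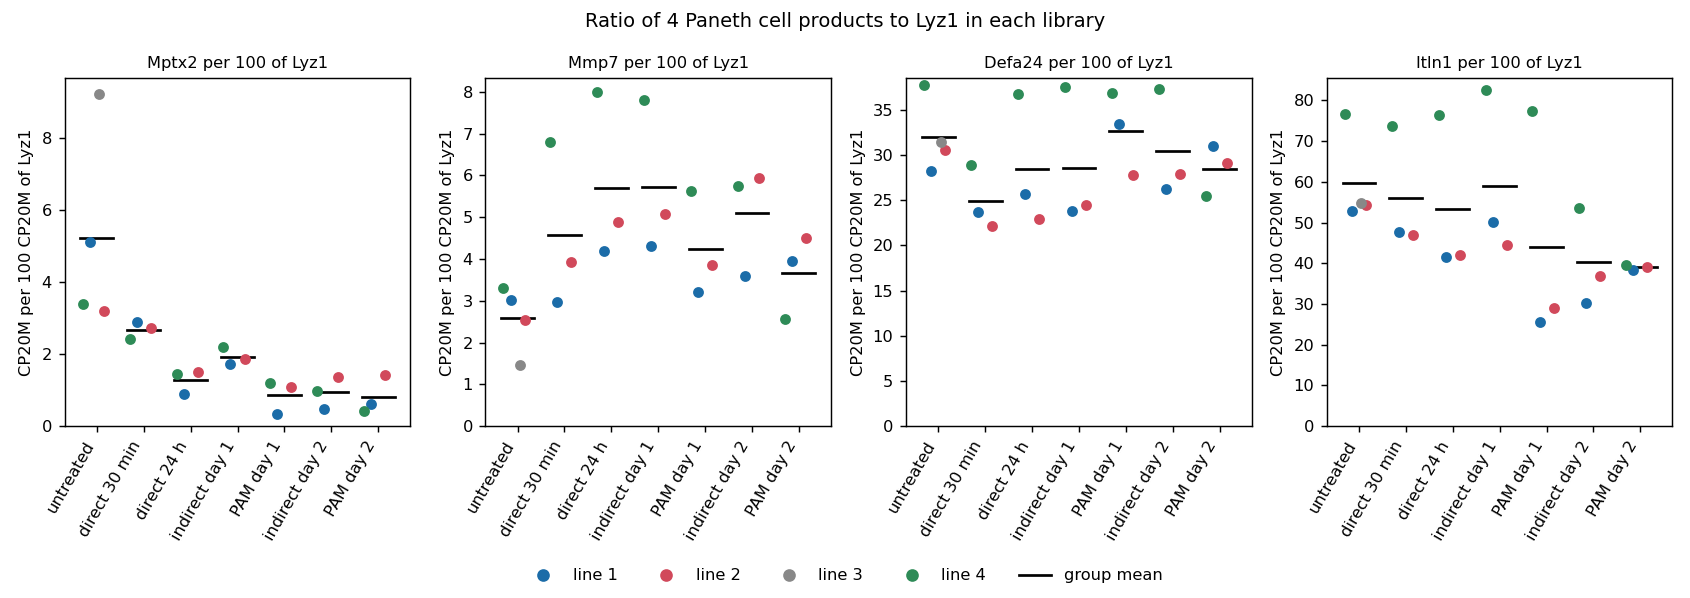
Mptx2, Mmp7, Defa24 and Itln1 as CP20M per 100 CP20M of Lyz1 in each library, by group, with colours for the lines and bars for the group means. Mptx2 is at 2.42 to 2.88 after 30 min of direct CAP and at most 2.21 in the 15 libraries of the other treated groups, below the untreated libraries, while the Mmp7 ratio is mostly above them.

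The lines differed in level within the treated groups. Line 2 was the highest of the 3 in all 6 treated groups for Lyz1, Mmp7, Defa22, Defa24, Defa30 and Mptx2, and in 5 of 6 for Defa17, Ang4 and Itln1. Of 19370 genes, 4.8% had line 2 highest in all 6 and 10.6% in at least 5. Line 4 was the lowest in 5 of 6 groups for Lyz1, Defa17, Defa24, Defa30 and Ang4 and in all 6 for Defa22. Of all genes, 16.5% had line 4 lowest in at least 5 of 6 groups and 6.32% in all 6. It was the lowest in 3 groups for Mptx2 and in 2 for Itln1 and Mmp7. For line 4, whose untreated library followed its label, the treated levels of Lyz1 were 18.6% to 56.9% of its own untreated level, those of Defa24 12.6% to 56.3%, those of Itln1 9.58% to 42.7% and those of Mptx2 2.35% to 31.9%. Mmp7 ranged from 14.5% to 99.4% in that line. In line 2, Lyz1 had 10716 to 18199 CP20M in the treated libraries, against 17237 and 20706 in the 2 untreated libraries whose line is in doubt, and Mmp7 had 414 to 910 against 437 and 624.

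Across the 22 libraries the log2 levels of the 9 products rose and fell together, with Pearson's r from 0.599 to 0.968 over the 36 pairs (median 0.844), as a description, since the libraries share treatments and lines. The 10 genes outside the list whose levels were most like the mean of the 9 products, among 13188 genes, were Defa3 (r = 0.981), Defa31 (0.98), Lyz2 (0.968), Defa23 (0.964), Defa29 (0.962), Defa35 (0.953), Adh4 (0.93), Klk1 (0.916), Sephs2 (0.915) and Habp2 (0.909). Of these, 7 belong to the list of other Paneth products described next. Defa3 shares most of its sequence with Defa17, Defa23 and Defa31 share at least 89.1% of their windows with each other, and Lyz2 and Lyz1 share about 2%.

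The other secreted products on that list, 50 genes in the table, were mostly lower. In the 3 groups exposed from day 1, 25 could be tested, 13 fell and 1 rose (median -1.66 on the log2 scale). Of all genes, 2.07% fell. Of the 25, 6 passed the filter on low values only with the help of the untreated libraries, 5 of the 13 that fell among them, and of the other 19 genes 8 fell (median -1.54). The most negative values were those of Mptx1, the related mucosal pentraxin gene (2608 to 328.3 CP20M in the means, -3.31 ± 0.58, adjusted p = 0.00117), of Defa5 (33.2 to 4.67 CP20M, -3.05 ± 0.67, adjusted p = 0.00394), which is 1 of those 6, and of Defa35 (439.8 to 82.0 CP20M, -2.86 ± 0.59, adjusted p = 0.00262). Pnliprp2, a pancreatic lipase-related enzyme, rose from 790.8 to 3296 CP20M (1.94 ± 0.31, adjusted p = 0.000688). Defa5 shares 88.1% of its windows with other genes, mostly Defa34, and Mptx1 shares 3.29% with Mptx2.

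After PAM from day 2, 6 of 26 of these genes fell and 1 rose (median -2.04), against 10.5% of all genes that fell. Of the 26, 13 passed the filter on low values only with the help of the untreated libraries, 4 of the 6 among them, and of the other 13 genes 2 fell (median -1.65). Mptx1 (-3.78 ± 0.68, adjusted p = 0.00302), the pseudogene Defa-ps4 (-3.13 ± 0.52, adjusted p = 0.00213) and Defa34 (-2.96 ± 0.59, adjusted p = 0.00472) had the most negative values. The last 2 had means of 0.667 and 2.67 CP20M after PAM and are among those 13, so that they could pass the filter only by being higher in untreated organoids. Pnliprp2 rose here as well (1.54 ± 0.18, adjusted p = 0.000574).

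Genes of Paneth specification and of the signals these cells send, 25 in all, had a median log2 fold change of -0.42 in the groups exposed from day 1, where 3 fell and none rose, against 2.07% of all genes that fell. The 3 were Bhlha15, also called Mist1, a transcription factor of secretory cells (530.5 to 167.7 CP20M, -1.74 ± 0.32, adjusted p = 0.00158), Gfi1, a transcription factor of the secretory lineage (117 to 52 CP20M, -1.24 ± 0.31, adjusted p = 0.00796), and the surface protein gene Cd24a (5303 to 2565 CP20M, -1.08 ± 0.17, adjusted p = 0.000655).

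After PAM from day 2, 12 of the 24 genes tested fell and 1 rose (median -1.28), against 10.5% of all genes that fell. The largest falls were in the Notch ligand Dll4 (419.5 to 63 CP20M, -2.96 ± 0.47, adjusted p = 0.00178), the receptor tyrosine kinase Kit (792.5 to 128.3 CP20M, -2.69 ± 0.40, adjusted p = 0.00131) and the WNT ligand Wnt3 (195.5 to 36 CP20M, -2.59 ± 0.42, adjusted p = 0.00187).

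**Figure D4:**
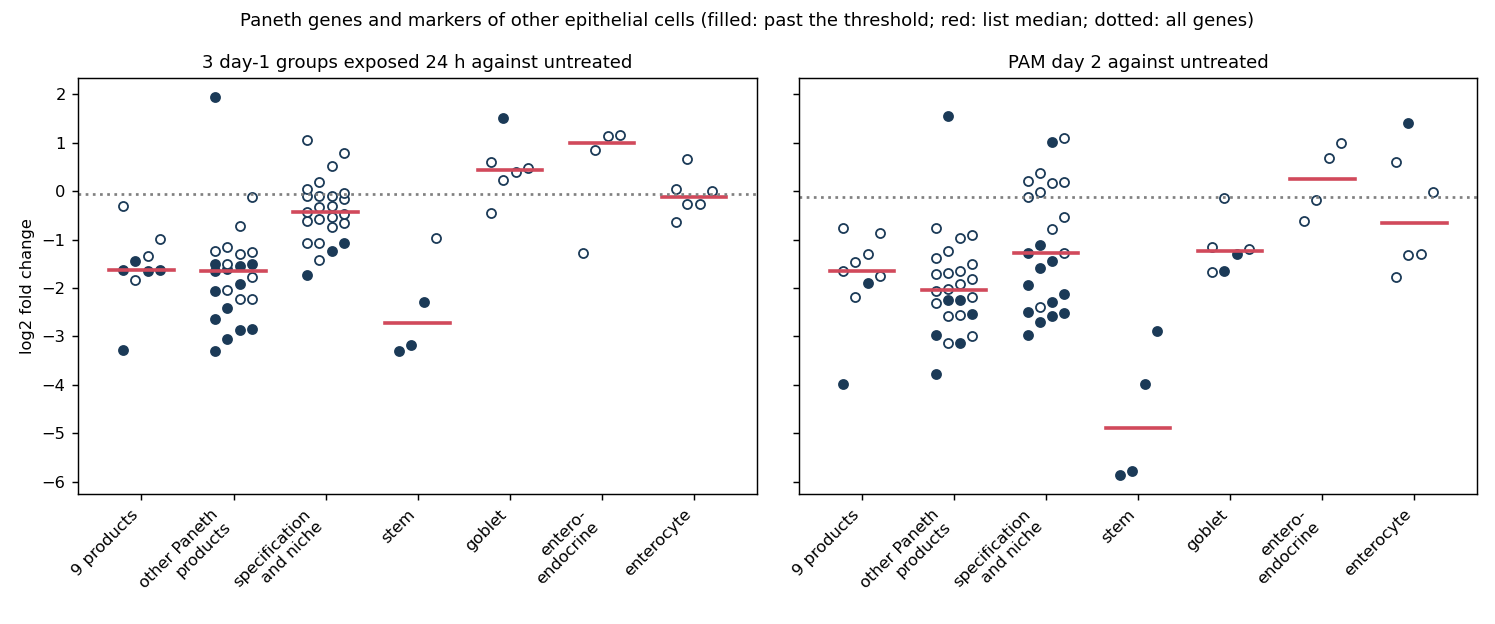
Log2 fold change of each tested gene of the 9 products, of the other lists and of markers of 4 other epithelial cell types, for the groups exposed for 24 h from day 1 (left) and for PAM from day 2 (right), with red bars for list medians, filled points for genes past the test and a dotted line for the median of all genes. The products are at a median of -1.63 and -1.66, and stem cell markers at -2.73 and -4.88. Without Defa22, which could be tested only with the help of the untreated libraries, the products are at -1.541 and -1.705.

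Markers of other epithelial cell types were compared in the same groups. Of all genes tested, 2.07% fell and 4.27% rose in the groups exposed from day 1. The shares were 5.71% and 6.2% after indirect CAP from day 2, and 10.5% and 6.82% after PAM from day 2. Of the 4 crypt base stem cell markers, Lgr5, Olfm4 and Smoc2 fell in the groups exposed from day 1 and Ascl2 did not pass (median -2.73), and all 4 fell after PAM from day 2 (median -4.88). Their summed level was 28399 to 33368 CP20M in untreated organoids and 17213 to 26825 after 30 min of direct CAP. It was 4515 to 8518 after direct CAP for 24 h, 4840 to 12267 after indirect CAP and 770 to 1998 after PAM from day 1, and 1951 to 2662 and 650 to 1925 after indirect CAP and PAM from day 2.

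Of the 6 goblet cell markers, 1 rose (Clca1, 1.51 ± 0.37, adjusted p = 0.00702) and none fell in the groups exposed from day 1, with a summed level of 79646 to 192362 CP20M against 79084 to 137596 untreated. After PAM from day 2 they summed to 19021 to 49056 CP20M, and Fcgbp and Zg16 fell. None of the 6 enterocyte or 4 enteroendocrine markers passed the test in the groups exposed from day 1 (medians -0.128 and 0.996). The enteroendocrine genes split: Chga, Chgb and Tac1 were higher (log2 fold change 0.85 to 1.16). Neurod1 was lower (-1.27, adjusted p = 0.013), with every treated library below every untreated one. From day 2, the enterocyte genes Fabp2 (-1.94, adjusted p = 0.00249) and Apoa1 (-2.22, adjusted p = 0.000237) fell and Alpi rose (1.07, adjusted p = 0.00829) after indirect CAP, and Alpi rose after PAM (1.42, adjusted p = 0.0024). Of the 4 tuft cell markers, Dclk1 was at 0 in 6 libraries, all of them treated, against 5 to 18 CP20M untreated. The 4 markers summed to 94 to 171 CP20M untreated and 127 to 681 in the treated libraries. From untreated to the groups exposed from day 1, the mean of Avil went from 31.75 to 233.8 CP20M. The means of Trpm5 were 62.75 and 63.4, of Pou2f3 34.75 and 24.6, and of Dclk1 11.25 and 0.889. Avil rose in the groups exposed from day 1 (2.58 ± 0.60, adjusted p = 0.00561) and after PAM from day 2 (2.10, adjusted p = 0.00874), where Pou2f3 fell (-1.82, adjusted p = 0.00883). The part of these shifts in the levels of the Paneth cell products was not tested.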

How the data were processed

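RNA-seq libraries (2 × 100 bases, paired-end) were made from 22 organoid cultures. The authors trimmed reads with Trimmomatic 0.36, aligned them to GRCm38 with STAR 2.5.3a and counted them with HTSeq 0.9.1, per the labels and methods. The deposited values are a score per gene and library, CP20M: counts scaled by the authors to 20 M per library and rounded up, so each stands for several possible read counts. The methods describe a division by length, which the low values do not show. Raw counts were not used here, and multimapping settings are not given in the sources used here. At about 20 M reads a value of 10 rests on about 10 reads.

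Tests were limma's trended moderated test (limma 3.58.1, R 4.3.3) on log2(value + 1) over genes with a value of at least 10 in at least 3 of the libraries compared, which understates changes of low genes. A gene was called to rise or fall at a Benjamini-Hochberg adjusted p under 0.01 over all genes tested, with a log2 fold change of 1 or more in size. The scripts were tested on simulated data. Genes were matched by identifier to GENCODE vM21 (52489 of 52636, 99.7%), and Python 3.11.15 with pandas 2.3.3 and matplotlib 3.10.9 did the rest. Depth was estimated from the spacing of low values (error at most 0.6% in 13 simulated libraries). In 24 replicate pairs checked, none looked like a library deposited again.

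The members and lists were chosen with earlier results of these data known. The genes named beside the 9 are, from each list, at most the 3 with the largest change past the threshold in the pooled day-1 and the PAM day-2 comparison, cell type markers given as a check, and the 10 genes most like the members over the 22 libraries. By the labels, same-numbered libraries come from the same mouse. Deviations from the group means correlated with a median of 0.564 (0.219 to 0.806) over the 45 same-line pairs of treated libraries, but untreated libraries 1 and 2 did not follow their own line (0.075 and 0.132). Fits with the line as a replicate block were run beside each comparison. The other alternatives left out each library in turn, fitted all 7 groups together, dropped the filter, added 10 before the log, normalized by quantiles, or called genes by an adjusted p under 0.05 whatever the fold. Leaving out whole lines, the blocked fit without untreated libraries 1 and 2, and the ratios to Lyz1 were added after seeing the data.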

Additional observations from a re-analysis of the deposited data

Results flagged for a closer look

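Of 89 genes of the lists checked in the 4 untreated libraries, 7 had 1 library far from the other 3 (a gap above Dixon's 95% limit for 4 samples, which chance gives in about 1 of 20 such groups), and none of the 9 products did. In the untreated library of line 1, Kit had 1233 CP20M against 602 to 686 in the others, Spdef 690 against 431 to 456, Habp2 631 against 283 to 323, Cd24a 6321 against 4868 to 5019 and Defa35 593 against 386 to 391. The tuft cell gene Avil had 10 CP20M in line 2 against 37 to 42, and the secreted phospholipase gene Pla2g2a had 769 in line 3 against 29 to 69.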

How the results depend on the processing

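The number of the 9 products called per comparison depended on the setting. With all 7 groups in one fit it was 0 for direct CAP for 24 h, 0 for indirect CAP from day 1 and 1 for indirect CAP from day 2. With the line as a replicate block it was 0 for PAM from day 1, 1 for PAM from day 2 and 1 for direct CAP for 24 h against 30 min. No count is read from the blocked pooled fit without untreated libraries 1 and 2, whose contrast rests on line 4 alone. The block moved no other count by more than 1.5 times. Without the filter it was 1 for PAM from day 2, and at an adjusted p under 0.05 whatever the fold 4 and 5 for indirect CAP and PAM from day 2. The cause of these changes was not tested, except that the last setting is less strict. Leaving out libraries or a line gave 0 to 6 in the pooled comparison, and leaving out 1 library gave 0 to 5 for direct CAP for 24 h, 0 to 3 for indirect CAP and 1 to 6 for PAM from day 1, 1 to 2 for indirect CAP and 0 to 3 for PAM from day 2, and 0 in the other 6 comparisons.

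No called product changed direction in these settings. Of values that did not pass, the log2 fold change of Mmp7 with the block was -0.15 after 30 min and -0.029 after 24 h of direct CAP. With libraries left out, that of Mmp7 ranged from -0.63 to 0.19 in the pooled comparison, -0.16 to 0.45 and -0.029 to 0.46 after direct CAP for 30 min and 24 h, -0.47 to 0.045 after indirect CAP from day 1 and -1.30 to 0.12 after PAM from day 2, and that of Ang4 from -0.68 to 0.11 after indirect CAP from day 2. Quantile normalization moved the median of all genes after PAM from day 2 from -0.12 to 0.00 and left 2 products called. Low values, as for Defa22, rest on few reads.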
